A study of Homo sapiens with 12 samples.

Results

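The E2F and DP transcription factors were described through 10 genes, E2F1 to E2F8, TFDP1 and TFDP2, chosen by family membership out of 55765 genes in the count tables. All 10 passed the filter on low counts, as did 17727 genes in all. The RNA came from T47D, an established luminal breast cancer line with progesterone and estrogen receptors, in 4 groups of 3 biological replicates, set up to follow the part of PRMT1, a protein arginine methyltransferase, in the response to progestin. The groups were cells with an siRNA against PRMT1 (siPRMT1) given R5020, siPRMT1 cells given ethanol, cells with a control siRNA (siCT) given R5020, and siCT cells given ethanol. R5020 is a synthetic progestin and was given at 10 nM for 6 h, ethanol is its vehicle, and all groups were kept in medium with serum and insulin. The siRNA lowers the PRMT1 transcript and leaves the gene in place.

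E2F proteins bind the promoters of genes needed for entry into S phase, most of them as a dimer with a DP protein. The retinoblastoma family (pocket proteins) holds them back until the G1 cyclin kinases phosphorylate it. E2F1, E2F2 and E2F3 are classed as activators. E2F4 and E2F5 repress together with pocket proteins, E2F6 works with polycomb-type complexes, and E2F7 and E2F8 bind DNA without a DP partner and repress, among others, the E2F1 gene. TFDP1 and TFDP2 encode the DP partners. E2F1 protein is a known substrate of PRMT1 and of PRMT5, a modification that RNA counts do not measure, and progestins are known to push breast cancer lines through a round of the cell cycle before arrest.

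Total counts ran from 26783525 to 34120937 per library. Levels are given as CPM, TMM-scaled counts per unit of library size, which corrects library totals for a few very abundant RNAs. PRMT1 stood at 6.98, 6.89 and 7.37 CPM in siPRMT1 R5020 libraries and 7.92, 8.38 and 8.38 CPM in siPRMT1 ethanol libraries, against 40.65, 50.7 and 37.5 CPM in siCT R5020 libraries and 45.4, 37.4 and 29.7 CPM in siCT ethanol libraries. It was lower in all 6 siPRMT1 libraries, by a log2 of -2.60 ± 0.18 (SE) with R5020 (edgeR adjusted p = 2.96e-06) and -2.19 ± 0.17 with ethanol (adjusted p = 7.79e-06). For R5020 itself PRMT1 gave adjusted p = 0.507 in siPRMT1 cells and 0.532 in siCT cells, and adjusted p = 1 for the difference of these effects. A pair of siCT libraries stood apart, R5020 replicate 1 with 52.35% of its counts in mitochondrially encoded genes and ethanol replicate 3 with 59.31%, where the remaining libraries had 31.32% to 38.26%. The coefficient of variation between replicates was 0.0753 and 0.0463 in siPRMT1 R5020 and ethanol, against 0.213 and 0.326 in siCT R5020 and ethanol. Members whose call changes without the pair are given both ways. All 10 luminal markers were detected in every library (KRT18 at 1890 to 7730 CPM). At an edgeR adjusted p under 0.05, R5020 lowered 4 and raised 0 of these markers under either siRNA. Of all genes, R5020 lowered 6.08% and raised 9.3% in siPRMT1 cells, and lowered 5.43% and raised 7.59% in siCT cells. With siPRMT1 under R5020 4 markers rose and 2 fell (11.5% and 14.2% of all genes). With siPRMT1 under ethanol 4 markers rose and 0 fell (13.6% and 19.2%). Of 10 markers of stroma, vessels and leukocytes that were measured, COL1A1 stood at 28.4 to 78.9 CPM, LUM at 0.504 to 6.01 CPM and VIM at 0.905 to 2.48 CPM, and the other 7 were at or below 0.381 CPM, with PTPRC at 0 in 8 of 12 libraries. Their summed level was 32.2 to 36.1 CPM in siPRMT1 R5020 libraries and 36.8 to 38.6 CPM in siPRMT1 ethanol libraries, against 31.8 to 62.3 CPM in siCT R5020 libraries and 38.3 to 87.2 CPM in siCT ethanol libraries, and their part in the results was not tested. Within each siCT group COL1A1 was highest in the library of the pair, at 58.4 CPM with R5020 (31.7 and 28.4 in the others). With ethanol it stood at 78.9 CPM there (39.4 and 32.6 in the others). LUM was also highest in the pair, at 2.10 CPM with R5020 and 6.01 CPM with ethanol. Of these markers LUM fell with siPRMT1, by -1.37 with R5020 (adjusted p = 0.0334) and by -1.60 with ethanol (adjusted p = 0.00818).

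Levels were compared between genes per kilobase of exon. TFDP1 was the most abundant gene of the family in every group, at 35.2 ± 2.01 CPM per kb in siPRMT1 R5020 and 32.3 ± 0.538 in siPRMT1 ethanol, against 23.6 ± 4.67 in siCT R5020 and 20.2 ± 5.92 in siCT ethanol (SD, n = 3 each). E2F4 came next in every group, with 11.2 ± 0.804 and 8.01 ± 0.987 CPM per kb in siPRMT1 R5020 and ethanol, against 14.2 ± 1.57 and 11.9 ± 1.75 in siCT R5020 and ethanol. E2F2 was the lowest in every group, with a mean of 0.495 and 0.545 CPM per kb in siPRMT1 R5020 and ethanol, against 0.873 and 0.540 in siCT R5020 and ethanol. The middle of the order differed between groups: in siCT R5020 E2F1 followed E2F4 at 10.1 ± 1.42 CPM per kb, and in siPRMT1 R5020 E2F3 did so at 6.97 ± 0.406. E2F5 followed E2F4 in siPRMT1 ethanol at 7.46 ± 0.176 and in siCT ethanol at 4.81 ± 1.52 CPM per kb. Several neighbours could not be separated. E2F5 overlapped E2F4 in siPRMT1 ethanol, and E2F3 in siPRMT1 R5020, siCT R5020 and siCT ethanol. In siPRMT1 R5020 E2F5 averaged 6.34 ± 0.64 CPM per kb, and in siCT ethanol E2F3 averaged 4.47 ± 0.217 CPM per kb. E2F6, E2F7, E2F8 and TFDP2 lay close together, with group means between 1.24 and 2.50 CPM per kb. In bulk RNA a lower share of cells that express a gene and less RNA per cell cannot be told apart, and the levels of E2F genes are known to follow the cell cycle.

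**Figure D1:**
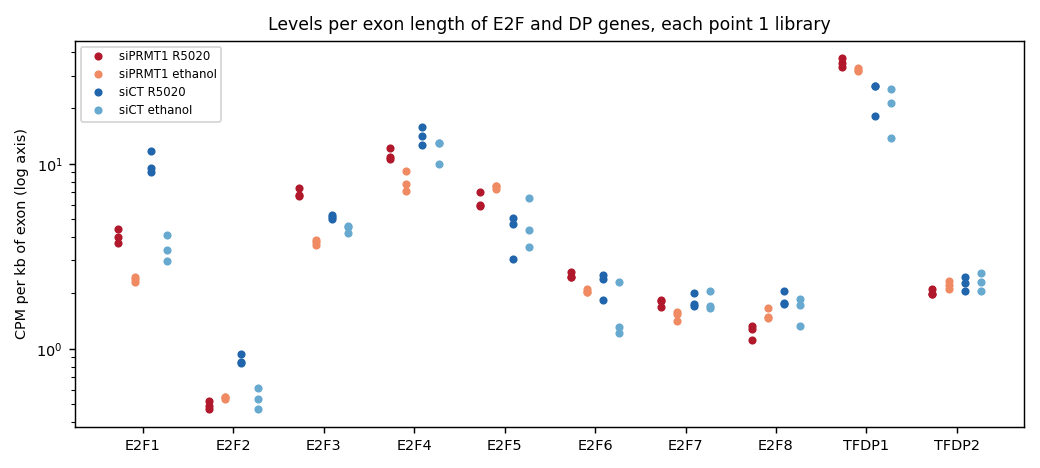
CPM per kb of exon (log axis) for the 10 genes, with 1 point per library and the 4 groups side by side within each gene. TFDP1 lies at the top and E2F2 at the bottom in all 4 groups, while E2F1 spans the widest range between groups.

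Genes with an adjusted p under 0.05 by edgeR's quasi-likelihood test over all 17727 genes are called. With R5020 in siPRMT1 cells 3 of 10 members rose and 0 fell, beside 15.4% of all genes called (9.3% up and 6.08% down). With R5020 in siCT cells 2 of 10 rose and 0 fell, beside 13% called (7.59% up and 5.43% down). With siPRMT1 under R5020 1 rose and 3 fell, beside 25.7% called (11.5% up and 14.2% down), and with siPRMT1 under ethanol 2 rose and 2 fell, beside 32.8% called (13.6% up and 19.2% down). Libraries of the groups did not overlap for 9, 3, 7 and 6 of the 10 members in these 4 comparisons, beside 53.1%, 20.8%, 51.5% and 44.7% of all genes. Nothing particular to the family is read from these counts. Each group enters 2 of the comparisons, so these share libraries. Scaled by library totals alone, the members called were 0 with R5020 in siPRMT1 cells, E2F1 with R5020 in siCT cells, E2F1 with siPRMT1 under R5020, and 0 with siPRMT1 under ethanol. The difference of the R5020 effects (siPRMT1 minus siCT) was called for 0 of 10 members by edgeR, beside 0.079% of all genes (0.0451% up and 0.0338% down). At an unadjusted p under 0.05 it held 3 members, E2F1, E2F2 and E2F3, beside 720 of 17727 genes. DESeq2 called 1 member, E2F3, beside 0.496% of all genes.

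**Figure D2:**
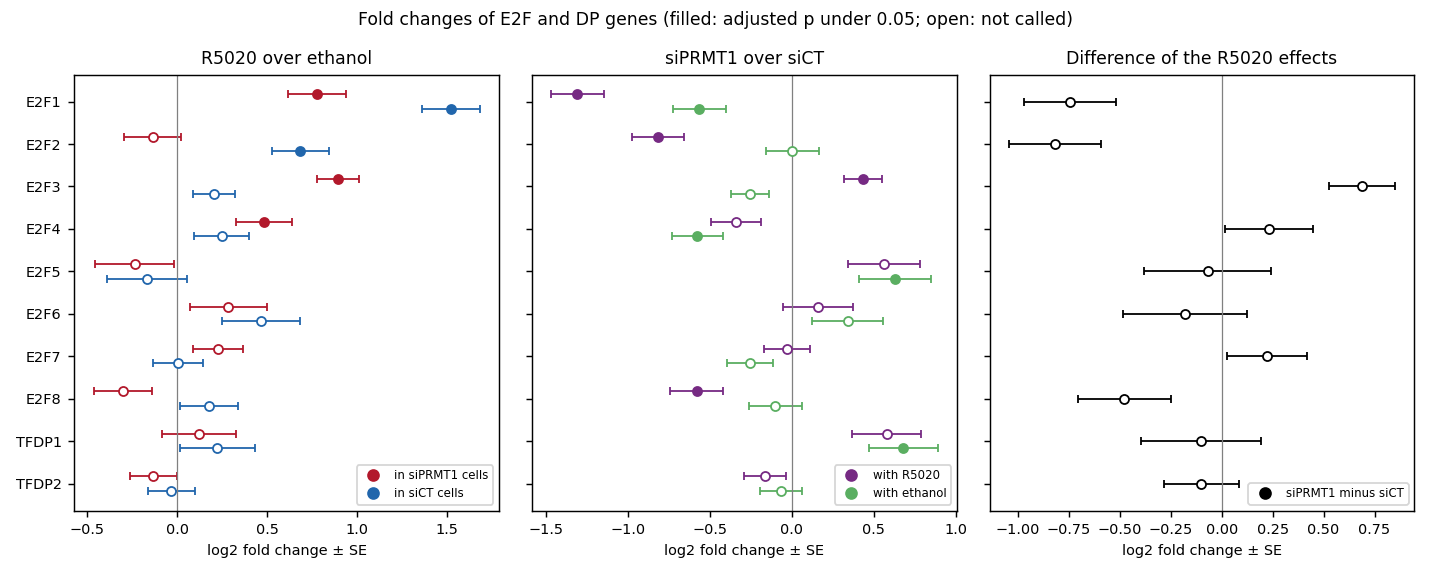
Log2 fold change ± SE of each gene for R5020 over ethanol, for siPRMT1 over siCT, and for the difference of the R5020 effects; filled points were called at an adjusted p under 0.05. E2F1 and E2F2 lie left of 0 and E2F3 right of 0 in the difference, where no gene was called.

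Among the activators E2F1 rose with R5020 under either siRNA and was lower with siPRMT1 under either treatment. E2F1 stood at 10.0, 9.33 and 11.2 CPM in siPRMT1 R5020 libraries and 6.12, 5.93 and 5.74 CPM in siPRMT1 ethanol libraries, against 29.2, 23.9 and 22.5 CPM in siCT R5020 libraries and 10.3, 7.43 and 8.53 CPM in siCT ethanol libraries. The 3 siCT R5020 libraries were the highest by a wide gap, the siPRMT1 ethanol libraries the lowest, and the siPRMT1 R5020 libraries overlapped the siCT ethanol libraries. R5020 raised E2F1 1.72-fold in siPRMT1 cells (log2 0.78 ± 0.16, adjusted p = 0.00442) and 2.87-fold in siCT cells (log2 1.52 ± 0.16, adjusted p = 2.37e-05). E2F1 was 2.47-fold lower with siPRMT1 under R5020 (log2 -1.31 ± 0.16, adjusted p = 0.000176) and 1.48-fold lower under ethanol (log2 -0.56 ± 0.16, adjusted p = 0.0187). The difference of the R5020 effects was -0.74 ± 0.23, with a 95% interval of -1.18 to -0.30, an unadjusted p of 0.00576 and an adjusted p = 0.605. Without the pair it was -0.60 (adjusted p = 0.285). The call under ethanol was lost when siCT ethanol replicate 1 (adjusted p = 0.0619) or any of siPRMT1 ethanol replicates 1, 2 and 3 (adjusted p = 0.0536, 0.0612 and 0.0717) was left out, and the authors' deposited table gives an adjusted p = 0.128 for it.

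E2F2, an activator and the least abundant member, rose with R5020 in siCT cells. It stood at 2.84, 2.59 and 2.68 CPM in siPRMT1 R5020 libraries and 3.00, 3.01 and 2.91 CPM in siPRMT1 ethanol libraries, against 4.56, 5.10 and 4.62 CPM in siCT R5020 libraries and 3.35, 2.92 and 2.57 CPM in siCT ethanol libraries. Only the 3 siCT R5020 libraries stood above the rest, and counts per library were 47 to 185. The R5020 effect was -0.14 ± 0.16 in siPRMT1 cells (adjusted p = 0.691) and 0.68 ± 0.16 in siCT cells (adjusted p = 0.0107). E2F2 was lower with siPRMT1 under R5020 (log2 -0.82 ± 0.16, adjusted p = 0.0032), and its value under ethanol was 0.003 ± 0.16 (adjusted p = 0.992). The difference of the R5020 effects was -0.82 ± 0.23 (95% interval -1.26 to -0.38, unadjusted p = 0.00294, adjusted p = 0.455). The rise in siCT cells was lost without siCT R5020 replicate 2 (adjusted p = 0.0569), with limma-voom (adjusted p = 0.0719) and when only the siCT libraries were fitted (adjusted p = 0.156), and the authors' deposited table gives an adjusted p = 0.158.

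E2F3 rose with R5020 in siPRMT1 cells and was the only activator higher with siPRMT1 under R5020. Its gene makes a longer and a shorter protein from separate promoters, which counts per gene do not tell apart. E2F3 stood at 38.4, 34.6 and 34.9 CPM in siPRMT1 R5020 libraries and 19.9, 19.4 and 18.8 CPM in siPRMT1 ethanol libraries, against 27.2, 26.0 and 26.7 CPM in siCT R5020 libraries and 23.9, 23.6 and 21.8 CPM in siCT ethanol libraries. No 2 groups overlapped, with siPRMT1 R5020 the highest and siPRMT1 ethanol the lowest. The R5020 effect was 0.89 ± 0.12 in siPRMT1 cells (1.86-fold, adjusted p = 0.000106) and 0.20 ± 0.11 in siCT cells (adjusted p = 0.305). E2F3 rose with siPRMT1 under R5020 by 0.43 ± 0.11 (adjusted p = 0.0154), and its value under ethanol was -0.25 ± 0.11 (adjusted p = 0.104). Without the pair E2F3 was called lower with siPRMT1 under ethanol (-0.28, adjusted p = 0.0236). The rise under R5020 was lost without siCT R5020 replicate 2 (adjusted p = 0.0631), siPRMT1 R5020 replicate 1 (adjusted p = 0.0691) or siPRMT1 R5020 replicate 3 (adjusted p = 0.0501). The difference of the R5020 effects was 0.69 ± 0.16 (95% interval 0.37 to 1.01, unadjusted p = 0.00092, adjusted p = 0.268), of opposite sign to that of E2F1 and E2F2. It was called by DESeq2 (0.67, adjusted p = 0.00188) and by edgeR without the pair (0.74, adjusted p = 0.0212), and not by limma-voom with quality weights (0.71, adjusted p = 0.0618).

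The start sites of the activator genes and of TFDP1 are shown because E2F proteins are known to act on the promoters of their own family. Promoters of 8 of the 10 members were matched by symbol in RefSeq (build GRCh38.p14), 11 promoters in all, each running from 250 bases before the start to 50 after it. The E2F motif was searched as TTTCCCGC, TTTCGCGC, TTTGCCGC or TTTGGCGC on both strands. It was found in 4 of the 11 member promoters, those of E2F1, E2F2, E2F3 and TFDP1, against 3.31% of 35116 promoters of all genes. The 150 bases before the start are printed 5′ to 3′ on the gene's strand, with the motif in capitals. E2F1 (chr20:33686386-33686535, minus strand) holds it 33 and 20 bases before the start, E2F2 (chr1:23531234-23531383, minus strand) 42 bases before, E2F3 (chr6:20401729-20401878, plus strand) 53 bases before, and TFDP1 (chr13:113584603-113584752, plus strand) 120 bases before:
E2F1: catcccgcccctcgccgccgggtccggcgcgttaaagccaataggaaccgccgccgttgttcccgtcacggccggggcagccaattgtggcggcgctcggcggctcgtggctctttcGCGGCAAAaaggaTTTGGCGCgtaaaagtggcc
E2F2: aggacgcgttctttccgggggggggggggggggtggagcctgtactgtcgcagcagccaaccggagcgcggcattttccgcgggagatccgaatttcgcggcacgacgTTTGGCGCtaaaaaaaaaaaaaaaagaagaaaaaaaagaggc
E2F3: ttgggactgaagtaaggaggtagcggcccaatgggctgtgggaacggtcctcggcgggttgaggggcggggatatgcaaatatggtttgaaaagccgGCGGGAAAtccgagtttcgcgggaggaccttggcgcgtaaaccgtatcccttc
TFDP1: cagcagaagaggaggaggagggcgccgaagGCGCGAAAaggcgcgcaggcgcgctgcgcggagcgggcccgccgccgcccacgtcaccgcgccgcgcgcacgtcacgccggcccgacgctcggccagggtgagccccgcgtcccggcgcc

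The other E2F3 promoter and the promoters of E2F4, E2F6, E2F7 and TFDP2 do not hold these letters. The half-site TGTTCT, known from progesterone and glucocorticoid receptor elements, was in 0 of the 11 member promoters and 14.8% of all promoters. CCAAT was in 4 of the 11 and 34.6% of all. These matches describe letters in a short window.

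**Figure D3:**
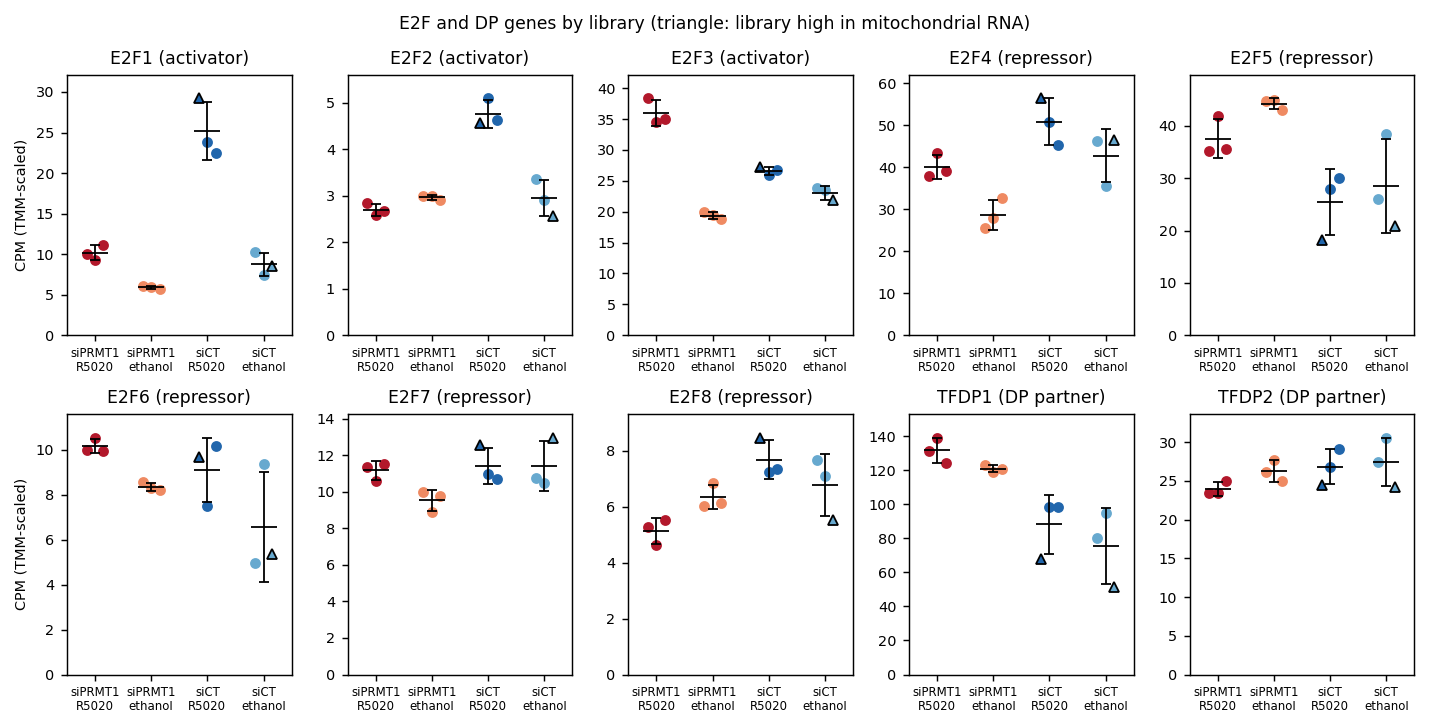
TMM-scaled CPM of the 10 genes in each of 12 libraries, by group, with the mean and SD of 3; triangles mark the pair of siCT libraries high in mitochondrially encoded RNA. E2F1 is highest in the 3 siCT R5020 libraries and E2F3 in the 3 siPRMT1 R5020 libraries, and E2F5 and TFDP1 are lowest in the pair.

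Among the repressors E2F4, which with pocket proteins keeps cell cycle genes silent in resting cells, stood at 37.8, 43.3 and 39.1 CPM in siPRMT1 R5020 libraries and 25.6, 27.9 and 32.6 CPM in siPRMT1 ethanol libraries. In siCT R5020 libraries it stood at 56.4, 50.7 and 45.2 CPM and in siCT ethanol libraries at 46.3, 35.5 and 46.5 CPM. The R5020 groups overlapped neither each other nor the siPRMT1 ethanol libraries. E2F4 was lower with siPRMT1 under ethanol (log2 -0.57 ± 0.15, adjusted p = 0.0132), and its value under R5020 was -0.34 ± 0.15 (adjusted p = 0.115). The fall under ethanol was lost without siPRMT1 ethanol replicate 1 (adjusted p = 0.0682) or 2 (adjusted p = 0.054). R5020 raised it in siPRMT1 cells by 0.48 ± 0.15 at adjusted p = 0.0497, a call lost when any siPRMT1 library was left out (adjusted p = 0.0558 to 0.208) or siCT R5020 replicate 2 or 3 (adjusted p = 0.0701 and 0.0575). Of 9 other settings 4 kept the call, among them the fit without the pair (adjusted p = 0.00983) and limma-voom (adjusted p = 7.47e-05). It was lost with RLE factors (adjusted p = 0.064), library totals (adjusted p = 0.469) and mitochondrial genes removed (adjusted p = 0.0517). It was also lost without the low-count filter (adjusted p = 0.124) and with the replicate block (adjusted p = 0.0938). The authors' deposited table gives an adjusted p = 1.87e-06. In siCT cells its R5020 effect was 0.25 ± 0.15 (adjusted p = 0.359).

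E2F5, the other pocket-protein partner among the repressors, was higher with siPRMT1. It stood at 35.2, 41.9 and 35.5 CPM in siPRMT1 R5020 libraries and 44.7, 45.0 and 43.0 CPM in siPRMT1 ethanol libraries, against 18.2, 28.0 and 30.1 CPM in siCT R5020 libraries and 26.1, 38.5 and 20.9 CPM in siCT ethanol libraries. The siPRMT1 libraries were above the siCT libraries under each treatment, and within each siCT group the library of the pair was the lowest. The change was called under ethanol (log2 0.63 ± 0.22, adjusted p = 0.0432) and gave 0.56 ± 0.22 under R5020 (adjusted p = 0.0764). Without the pair these values were 0.46 (adjusted p = 0.0244) and 0.38 (adjusted p = 0.0597). The call under ethanol was lost in 9 of the 12 fits that left out 1 library, with adjusted p between 0.0537 and 0.114. In its exons, 16.3% of the length overlaps C8orf59 on the opposite strand, and the strand setting of the counting is not given in the sources used here, so reads of these genes cannot be told apart there. Its R5020 effects were -0.24 ± 0.22 in siPRMT1 cells (adjusted p = 0.593) and -0.17 ± 0.22 in siCT cells (adjusted p = 0.722).

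E2F6, which represses without pocket proteins, was called in none of these comparisons. It stood at 9.98, 10.5 and 9.96 CPM in siPRMT1 R5020 libraries and 8.55, 8.28 and 8.22 CPM in siPRMT1 ethanol libraries, against 9.69, 7.47 and 10.2 CPM in siCT R5020 libraries and 4.96, 9.35 and 5.36 CPM in siCT ethanol libraries. Replicate 2 of siCT ethanol lay far above the other 2. Its R5020 effect was 0.28 ± 0.21 in siPRMT1 cells (adjusted p = 0.485) and 0.47 ± 0.22 in siCT cells (adjusted p = 0.202). Without siCT ethanol replicate 2 the effect in siCT cells was 0.83 (adjusted p = 0.00427), and the siPRMT1 value under ethanol was 0.69 (adjusted p = 0.00464) in place of 0.34 (adjusted p = 0.242). That fit keeps siCT ethanol replicate 3, a library of the pair. Without the pair the effect in siCT cells was 0.29 (adjusted p = 0.463) and the siPRMT1 value under ethanol 0.23 (adjusted p = 0.405).

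The atypical repressors differed from each other. E2F7 stood at 11.4, 10.6 and 11.5 CPM in siPRMT1 R5020 libraries and 9.99, 8.89 and 9.74 CPM in siPRMT1 ethanol libraries, against 12.6, 10.9 and 10.7 CPM in siCT R5020 libraries and 10.7, 10.5 and 13.0 CPM in siCT ethanol libraries. It was not called in any comparison, and its fold changes lay between -0.25 and 0.23. E2F8 stood at 5.27, 4.63 and 5.51 CPM in siPRMT1 R5020 libraries and 6.03, 6.84 and 6.15 CPM in siPRMT1 ethanol libraries, against 8.48, 7.25 and 7.34 CPM in siCT R5020 libraries and 7.66, 7.11 and 5.52 CPM in siCT ethanol libraries. The siPRMT1 R5020 libraries were the lowest, the highest of them just under siCT ethanol replicate 3. E2F8 fell with siPRMT1 under R5020 by -0.58 ± 0.16 (adjusted p = 0.0203), and its value under ethanol was -0.10 ± 0.16 (adjusted p = 0.653). That fall was lost without siCT R5020 replicate 1 (adjusted p = 0.0678), siPRMT1 R5020 replicate 1 (adjusted p = 0.0582) or siPRMT1 R5020 replicate 2 (adjusted p = 0.0958). The difference of the R5020 effects for E2F8 was -0.48 ± 0.23 (unadjusted p = 0.0554, adjusted p = 1).

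Of the DP partners, TFDP1 was higher with siPRMT1. It stood at 131, 139 and 124 CPM in siPRMT1 R5020 libraries and 123, 119 and 121 CPM in siPRMT1 ethanol libraries, against 67.9, 98.3 and 98.1 CPM in siCT R5020 libraries and 80.1, 94.8 and 51.3 CPM in siCT ethanol libraries. All 6 siPRMT1 libraries were above all 6 siCT libraries, and the library of the pair was the lowest of its group. TFDP1 rose with siPRMT1 under ethanol (log2 0.68 ± 0.21, adjusted p = 0.0251) and gave 0.58 ± 0.21 under R5020 (adjusted p = 0.057). Without the pair it was called under both treatments, at 0.48 (adjusted p = 0.00161) with ethanol and 0.43 (adjusted p = 0.00336) with R5020. The call under ethanol was lost without siPRMT1 ethanol replicate 1, 2 or 3 (adjusted p = 0.0721, 0.0628 and 0.0684). TFDP2 ranged from 23.5 to 27.7 CPM over siPRMT1 libraries and 24.3 to 30.6 CPM over siCT libraries, and was called in no comparison, with fold changes between -0.16 and -0.03. At an adjusted p under 0.05 the authors' deposited table also holds E2F5 (log2 -0.24, adjusted p = 0.0127) and E2F6 (0.28, adjusted p = 0.0458) for R5020 in siPRMT1 cells. For siPRMT1 under R5020 the authors' deposited table also holds E2F5 (0.55, adjusted p = 0.0186) and TFDP1 (0.57, adjusted p = 0.00429), and for siPRMT1 under ethanol it gives E2F4 an adjusted p = 0.0834.

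The balance of activators and repressors was described in each library as the mean log2 CPM of E2F1 to E2F3 minus that of E2F4 to E2F8, with no test. It was -0.55, -0.72 and -0.60 in siPRMT1 R5020 libraries and -0.99, -1.03 and -1.11 in siPRMT1 ethanol libraries, against -0.06, -0.06 and -0.20 in siCT R5020 libraries and -0.55, -0.97 and -0.73 in siCT ethanol libraries. The siCT R5020 libraries had the highest balance and the siPRMT1 ethanol libraries the lowest, and siPRMT1 R5020 overlapped siCT ethanol. The R5020 libraries were 0.42 above the ethanol libraries in siPRMT1 cells and 0.64 above them in siCT cells. The siPRMT1 minus siCT difference was -0.52 with R5020 and -0.30 with ethanol, with an SD of 0.12 and 0.22. This SD is the square root of the summed variances of both groups, a spread of single libraries and not of group means. The means of the activators were 3.33 ± 0.07 and 2.82 ± 0.04 in siPRMT1 R5020 and ethanol, against 3.89 ± 0.06 and 3.08 ± 0.14 in siCT R5020 and ethanol. Those of the repressors lay within 3.83 to 3.99 in the 4 groups. Both means merge genes that moved in opposite directions. With siPRMT1 under ethanol E2F4 gave -0.57 and E2F5 0.63, and under R5020 E2F8 gave -0.58 and E2F5 0.56. Among the activators under R5020, E2F1 gave -1.31 and E2F2 -0.82 with siPRMT1, and E2F3 gave 0.43. The balance depends on weighting: on the log2 ratio of summed CPM, which weights each gene by its abundance, the difference of the R5020 effects was 0.11 in place of -0.22.

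**Figure D4:**
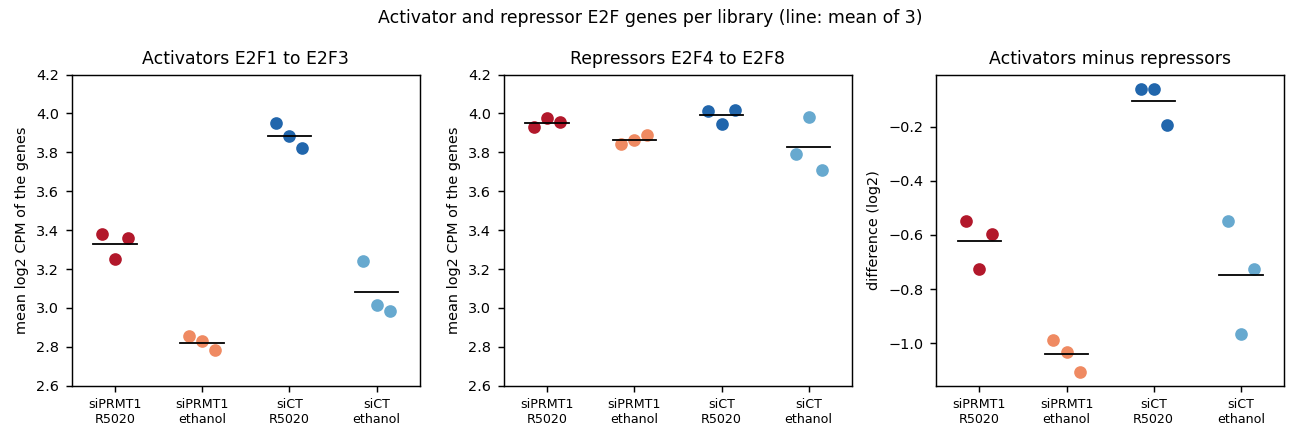
Mean log2 CPM of the activators and of the repressors, and their difference, with 1 point per library and a line at the mean of 3. The activator means spread from 2.82 to 3.89 over the groups while the repressor means stay within 3.83 to 3.99.

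The 5 genes whose pattern over the 12 libraries was most like that of E2F1, by the smallest root mean square difference of centred log2 CPM among genes of at least 5 CPM, were CAMKK2 (0.157), DUSP1 (0.176), MCM5 (0.231), TSPAN33 (0.231) and CDC6 (0.256). MCM5 and CDC6 are also in the list of E2F targets given below. CAMKK2 averaged 33.9 CPM in siPRMT1 R5020 and 18.9 CPM in siPRMT1 ethanol, against 69.0 CPM in siCT R5020 and 27.8 CPM in siCT ethanol.

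Upstream of the pocket proteins, the list of G1 cyclins, their kinases and inhibitors had 14 of 15 genes tested. R5020 raised 4 and lowered 1 in siPRMT1 cells (9.3% and 6.08% of all genes), and raised 4 and lowered 1 in siCT cells (7.59% and 5.43%). CCND1, which encodes cyclin D1, rose by 1.59 ± 0.16 in siPRMT1 cells (adjusted p = 1.59e-05) and 1.59 ± 0.17 in siCT cells (adjusted p = 2.04e-05). CCNE2, a partner of CDK2, rose by 1.04 ± 0.17 (adjusted p = 0.000901) in siPRMT1 cells and by 1.49 ± 0.18 (adjusted p = 6.13e-05) in siCT cells. The kinase inhibitor gene CDKN1C also rose, by 1.64 ± 0.19 in siPRMT1 cells (adjusted p = 3.57e-05) and 3.05 ± 0.21 in siCT cells (adjusted p = 6.94e-07), so genes that drive and genes that restrain the kinases rose together. CDKN1A, another inhibitor gene, rose in siPRMT1 cells (1.16 ± 0.21, adjusted p = 0.00167) and gave 0.59 ± 0.21 in siCT cells (adjusted p = 0.09). CDKN2B, an inhibitor of CDK4 and CDK6, fell in siPRMT1 cells (-0.66 ± 0.18, adjusted p = 0.0231) and in siCT cells (-0.89 ± 0.18, adjusted p = 0.00399). CDK2 rose in siCT cells (0.55 ± 0.14, adjusted p = 0.018) and gave 0.33 ± 0.14 in siPRMT1 cells (adjusted p = 0.151). The siPRMT1 libraries had 3 genes higher and 3 lower under R5020 (11.5% and 14.2% of all genes), and 2 higher and 3 lower under ethanol (13.6% and 19.2%). CDK2 fell by -0.94 ± 0.14 under R5020 (adjusted p = 0.000668) and by -0.72 ± 0.14 under ethanol (adjusted p = 0.00264), and CDKN2A, also an inhibitor of CDK4 and CDK6, fell by -1.28 ± 0.15 (adjusted p = 0.000111) and -1.09 ± 0.14 (adjusted p = 0.000216). CCND1 rose with siPRMT1 by 0.68 ± 0.16 under R5020 (adjusted p = 0.00948) and 0.68 ± 0.16 under ethanol (adjusted p = 0.00783). With siPRMT1 CDKN1A rose under R5020 (0.85 ± 0.21, adjusted p = 0.0113), and CDKN1C rose under ethanol (1.54 ± 0.22, adjusted p = 0.000414). CDKN2B fell with siPRMT1 under R5020 (-0.68 ± 0.18, adjusted p = 0.0163) and under ethanol (-0.90 ± 0.18, adjusted p = 0.00266).

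None of the 3 pocket protein genes was called in any comparison by edgeR. RB1 stood at 56.4, 69.8 and 56.6 CPM in siPRMT1 R5020 libraries and 59.8, 63.0 and 71.3 CPM in siPRMT1 ethanol libraries, against 26.6, 45.1 and 49.8 CPM in siCT R5020 libraries and 38.2, 56.9 and 26.1 CPM in siCT ethanol libraries. It was above the siCT libraries in all siPRMT1 libraries of the same treatment and lowest in the pair, with log2 values of 0.59 ± 0.27 under R5020 (adjusted p = 0.119) and 0.68 ± 0.27 under ethanol (adjusted p = 0.0667). RBL1 gave -0.42 ± 0.18 with siPRMT1 under R5020 (adjusted p = 0.0953), and RBL2 gave -0.28 ± 0.12 with R5020 in siPRMT1 cells (adjusted p = 0.175).

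The MuvB core, which with E2F4 and pocket proteins forms the DREAM repressor and with B-Myb activates mitotic genes, was listed with its partners as 8 genes. MYBL2, the gene of B-Myb and a known E2F target, fell with siPRMT1. It stood at 17.2, 14.9 and 16.8 CPM in siPRMT1 R5020 libraries and 11.7, 11.5 and 9.60 CPM in siPRMT1 ethanol libraries, against 38.1, 55.9 and 51.5 CPM in siCT R5020 libraries and 44.1, 28.7 and 21.6 CPM in siCT ethanol libraries. All 6 siPRMT1 libraries were below all 6 siCT libraries, with log2 values of -1.58 ± 0.23 under R5020 (adjusted p = 0.00058) and -1.53 ± 0.23 under ethanol (adjusted p = 0.000571). MYBL1, which encodes a related factor, rose with R5020 in siCT cells (1.27 ± 0.17, adjusted p = 0.000206) and fell with siPRMT1 under R5020 (-0.67 ± 0.17, adjusted p = 0.0134). RBBP4, a histone-binding subunit, rose with siPRMT1 under ethanol (0.45 ± 0.16, adjusted p = 0.0452). The list had 0 genes called with R5020 in siPRMT1 cells, where MYBL1 gave 0.51 ± 0.17 (adjusted p = 0.0607) and MYBL2 0.57 ± 0.23 (adjusted p = 0.128). In siCT cells MYBL2 gave 0.62 ± 0.23 with R5020 (adjusted p = 0.0947).

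Counts for the partners and regulators of E2F proteins stand beside 15.4% of all genes called with R5020 in siPRMT1 cells, 13% with R5020 in siCT cells, 25.7% with siPRMT1 under R5020 and 32.8% with siPRMT1 under ethanol. Of the 14 genes of the E2F6 complexes, 1 rose with R5020 in siPRMT1 cells (WDR5, 0.68 ± 0.18, adjusted p = 0.0219) and 2 fell in siCT cells (MGA, -0.42 ± 0.13, adjusted p = 0.047, and EPC1, -0.42 ± 0.13, adjusted p = 0.0485). With siPRMT1 under ethanol CBX3 rose (0.74 ± 0.26, adjusted p = 0.0468) and RING1 fell (-0.57 ± 0.18, adjusted p = 0.0284), and under R5020 0 were called, YAF2 (0.61 ± 0.22, adjusted p = 0.0581) being nearest. Of 8 genes for the turnover of E2F proteins, FZR1, an activator of the APC/C ubiquitin ligase, fell with siPRMT1 under R5020 (-0.55 ± 0.19, adjusted p = 0.0443) and under ethanol (-0.79 ± 0.19, adjusted p = 0.00777). Under ethanol USP37 (0.48 ± 0.16, adjusted p = 0.0336) and CCNA2, the gene of cyclin A2 (0.73 ± 0.26, adjusted p = 0.046), rose with siPRMT1. R5020 raised CDC20 and lowered CCNF, a cyclin F gene, in siPRMT1 cells (0.75 ± 0.22, adjusted p = 0.0317, and -0.56 ± 0.17, adjusted p = 0.0399), and 0 were called in siCT cells, where CDC20 gave 0.63 ± 0.22 (adjusted p = 0.0782) and CCNF -0.49 ± 0.17 (adjusted p = 0.0814).

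Of the enzymes that methylate E2F1, the list held PRMT1, PRMT5 and WDR77, the partner protein that PRMT5 needs. PRMT5 stood at 34.3, 29.4 and 30.3 CPM in siPRMT1 R5020 libraries, against 19.7, 23.5 and 23.4 CPM in siCT R5020 libraries, and rose by 0.50 ± 0.17 (adjusted p = 0.0465). Its value with siPRMT1 under ethanol was 0.40 ± 0.17 (adjusted p = 0.0881). WDR77 fell with siPRMT1 by -0.84 ± 0.18 under R5020 (adjusted p = 0.00534) and by -1.19 ± 0.18 under ethanol (adjusted p = 0.000611).

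The known targets of E2F at the G1/S boundary were listed as 30 genes, of which 29 were tested. R5020 raised 5 and lowered 0 in siPRMT1 cells, where 9.3% of all genes rose, and raised 17 and lowered 0 in siCT cells, where 7.59% of all genes rose. The median log2 change was 0.26 and 0.74, beside a median over all genes of -0.004 and -0.04. With siPRMT1 under R5020 0 rose and 15 fell, with a median of -0.52, where 14.2% of all genes fell. With siPRMT1 under ethanol 4 rose and 3 fell, with a median of 0.01, where 13.6% of all genes rose and 19.2% fell. GINS2, a subunit of the replicative helicase, averaged 127 CPM in siPRMT1 R5020 and 22.4 CPM in siPRMT1 ethanol, against 260 CPM in siCT R5020 and 39.5 CPM in siCT ethanol, and rose by 2.50 ± 0.24 in siPRMT1 cells (adjusted p = 9.19e-06) and 2.71 ± 0.25 in siCT cells (adjusted p = 5.95e-06). CDC6, which loads the helicase, stood at 18.7, 18.4 and 17.8 CPM in siPRMT1 R5020 libraries and 11.2, 11.4 and 11.8 CPM in siPRMT1 ethanol libraries, against 35.8, 42.4 and 42.9 CPM in siCT R5020 libraries and 16.8, 19.9 and 13.6 CPM in siCT ethanol libraries. It fell with siPRMT1 by -1.14 ± 0.15 under R5020 (adjusted p = 0.000285) and by -0.55 ± 0.15 under ethanol (adjusted p = 0.0144). Under ethanol GINS2 also fell (-0.82 ± 0.23, adjusted p = 0.018), while RRM2, a subunit of ribonucleotide reductase (0.56 ± 0.17, adjusted p = 0.024), and MCM4, a helicase subunit (0.45 ± 0.15, adjusted p = 0.0328), rose with siPRMT1.

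The difference of the R5020 effects was negative for 29 of the 29 G1/S genes, with a median of -0.49, where 44% of all genes were negative and the median was 0.04. None of the 29 was called by edgeR, and CHAF1A (-0.70 ± 0.19, unadjusted p = 0.00309, adjusted p = 0.466) and MCM5 (-0.77 ± 0.23, unadjusted p = 0.00502, adjusted p = 0.552) had the smallest p. All 29 were also negative without the pair, with a median of -0.44. Without the pair R5020 raised 12 in siPRMT1 cells and 23 in siCT cells, and siPRMT1 lowered 19 under R5020 and under ethanol raised 5 and lowered 7. In the same fits the share of all genes called was larger too, at 29.1% with R5020 in siPRMT1 cells, 19.9% with R5020 in siCT cells, 38.9% with siPRMT1 under R5020 and 44.5% with siPRMT1 under ethanol. The genes of this list are expressed together in S phase and are not independent of each other. The E2F motif was in 17 of 39 promoters of the 27 list genes matched (43.6%), against 3.31% of all promoters. The list was drawn up as known E2F targets, so a higher share follows from that choice. A link between the motif and the changes was not tested.

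**Figure D5:**
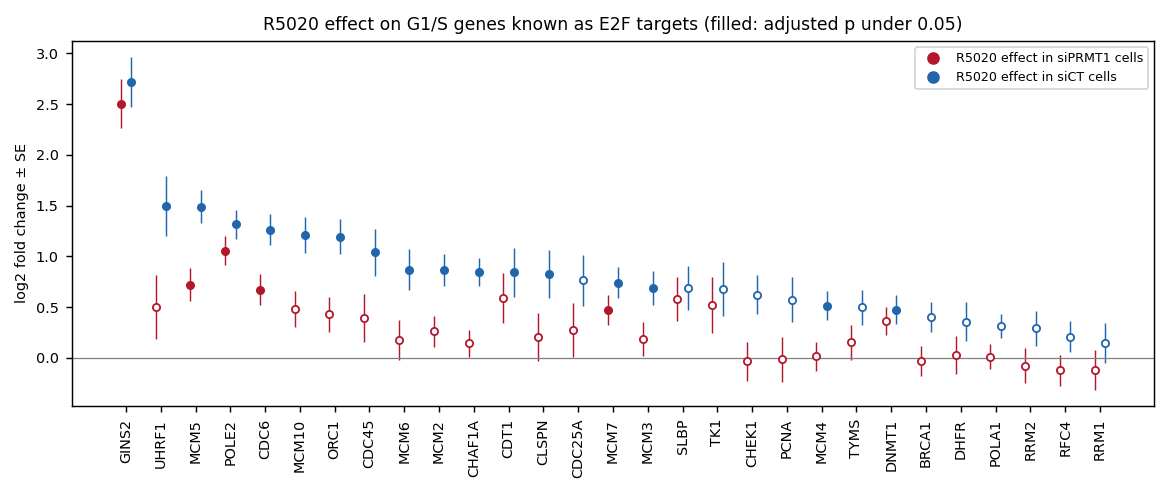
Log2 fold change ± SE with R5020 of 29 G1/S genes in siPRMT1 cells and in siCT cells, ordered by the value in siCT cells; filled points were called. All 29 genes lie lower in siPRMT1 cells than in siCT cells, and the difference was called for none.

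Genes known as apoptosis targets of E2F1 changed in both directions. TP73, which encodes the p53 relative p73, fell with R5020 in siPRMT1 cells (-1.07 ± 0.18, adjusted p = 0.000925) and in siCT cells (-0.66 ± 0.17, adjusted p = 0.022), and fell with siPRMT1 under R5020 (-1.01 ± 0.18, adjusted p = 0.00192) and under ethanol (-0.60 ± 0.17, adjusted p = 0.0188). BCL2L11, which encodes the BH3 protein BIM, rose with R5020 in siPRMT1 cells (0.96 ± 0.22, adjusted p = 0.00896) and with siPRMT1 under R5020 (1.29 ± 0.22, adjusted p = 0.00167) and ethanol (0.95 ± 0.22, adjusted p = 0.00714). BBC3, the gene of the BH3 protein PUMA, fell with siPRMT1 under R5020 (-0.71 ± 0.24, adjusted p = 0.0419) and ethanol (-0.95 ± 0.22, adjusted p = 0.00708). TP53INP1, a p53-inducible gene, rose with siPRMT1 under ethanol (0.71 ± 0.13, adjusted p = 0.00163). With R5020 in siPRMT1 cells 1 of 8 listed genes rose and 1 fell (9.3% and 6.08% of all genes), and with siPRMT1 under ethanol 2 rose and 2 fell (13.6% and 19.2%).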

How the data were processed

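The authors deposited whole-number read counts per gene symbol for each of 12 libraries, with no normalization, and a table of their own log2 fold changes and adjusted p-values, quoted only where named. Libraries were made from TRIzol RNA with a Lexogen SENSE mRNA kit, per the labels' protocols. The submitters' processing notes name the build hg19 and the tools HTSeq 0.9.1, Bowtie2 2.3.2.2 and DESeq2, with no settings. How strand was handled, and which annotation was counted, is not given in the sources used here. Counting without strand would mix reads of overlapping genes.

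Samples were grouped by their siRNA and treatment labels. The test was edgeR's quasi-likelihood test (4.0.16, under R 4.3.3) after filterByExpr and TMM, with 1 mean per group over 12 libraries and p adjusted by Benjamini-Hochberg over 17727 genes. Groups share 1 estimate of the spread. CPM were computed from the counts with edgeR, and log2 CPM with a prior count of 2. SE belong to log2 values, SD to 3 libraries unless stated otherwise, intervals are 95%, and p-values reflect the spread of these libraries alone. No 2 libraries agreed within counting noise. Exon lengths came from GENCODE v29 (GRCh38), promoters from RefSeq. The procedure was also run on simulated counts with the same spread in all groups. The spread of these libraries differs between groups, so that run cannot show how the calls fare here. DESeq2 1.42.0 and limma 3.58.1 (voom) were alternatives.

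The members and 10 gene lists were chosen with earlier results of these data known. All members and PRMT1 were named, from each list genes among the 4 called with the smallest adjusted p in a comparison, or the 2 smallest p where none was called, and the 5 genes most like E2F1. The marker PECAM1 is not analysed here, and 1 listed gene is not reported here.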

Additional observations from a re-analysis of the deposited data

How the results depend on the processing

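Across the members' fold changes, direction and side of the threshold held for 543 of 600 values from fits that left out 1 library. They held for 382 of 440 values from other settings. Most of these values were not called in the main fit and stayed so. Calls of the main fit were lost in 33 values without 1 library and in 24 from other settings, and calls were gained in 6 and 22. The totals of 600 and 440 are no base for the lost calls, as most values had no call to lose. E2F1 and E2F3 kept their rise with R5020 in siPRMT1 cells, E2F1 its rise in siCT cells, and E2F1 and E2F2 their fall with siPRMT1 under R5020, in all 12 fits that left out 1 library. Library totals alone, which move the median of all genes from -0.0036 to -0.18 for R5020 in siPRMT1 cells and from -0.07 to 0.11 for siPRMT1 under ethanol, left 0 members called for R5020 in siPRMT1 cells, 1 for R5020 in siCT cells, 1 for siPRMT1 under R5020 and 0 under ethanol, beside 11.6%, 8.9%, 13.7% and 17% of all genes. In that setting 1, 7, 2 and 0 G1/S targets were called in the same order. Limma-voom with quality weights called 7, 1 and 8 members for R5020 in siPRMT1 cells, R5020 in siCT cells and siPRMT1 under R5020, beside 46.1%, 11.6% and 55.7% of all genes. Fitting only the groups compared, which drops the shared spread, called 7 and 1 members for R5020 in siPRMT1 and siCT cells (46.6% and 5.29% of all genes), 6 for siPRMT1 under R5020 (35.2%) and 0 under ethanol (19.5%). DESeq2, and edgeR without the pair, each called 1 member in the difference of R5020 effects, beside 0.496% and 0.779% of all genes. Without the pair 12 G1/S targets were called for R5020 in siPRMT1 cells and 12 for siPRMT1 under ethanol, beside 29.1% and 44.5% of all genes. Leaving out 1 library gave 1 to 3 members for R5020 in siCT cells, 2 to 6 for siPRMT1 under R5020 and 0 to 5 under ethanol. The share of all genes called also moved, over 8.57% to 16.8%, 12.9% to 37.5% and 19.3% to 43.4% in the same order. The balance by summed CPM was 0.69 for R5020 in siPRMT1 cells, -0.21 for siPRMT1 under R5020 and 0.11 for the difference of R5020 effects, and the balance of mean log2 CPM without E2F7 and E2F8 was -0.70 for siPRMT1 under R5020.

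The members' values that changed sign were not called with either sign, and the cause was not tested. For R5020 in siPRMT1 cells this was TFDP1 with library totals (-0.050). For R5020 in siCT cells it was E2F7 with RLE factors (-0.00058), library totals (-0.0075) and mitochondrial genes removed (-0.0026), and E2F8 without the pair (-0.025). Leaving out 1 library gave -0.32 to 0.11 for E2F5, -0.064 to 0.13 for E2F7 and -0.089 to 0.056 for TFDP2 there. With siPRMT1 under R5020 E2F7 was 0.021 with library totals, 0.044 with limma-voom, 0.055 without the pair and -0.074 to 0.044 without 1 library. With siPRMT1 under ethanol E2F8 (0.046) and TFDP2 (0.094) turned with library totals, E2F2 turned with limma-voom and without the pair (-0.067 each), and the ranges without 1 library were -0.016 to 0.11 for E2F2 and -0.10 to 0.016 for TFDP2. In the difference of R5020 effects these ranges were -0.34 to 0.070 for E2F5 and -0.30 to 0.046 for TFDP1.

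Replicate numbers did not pair the libraries: 3 of 18 correlations of same-numbered deviations were over 0.1 (range -0.667 to 0.29), and 2 of 12 libraries correlated best with their own number. With the replicate block 2, 2, 4, 4 and 0 members were called for R5020 in siPRMT1 cells, R5020 in siCT cells, siPRMT1 under R5020, siPRMT1 under ethanol and the difference. In the same order 12.9%, 10.7%, 21.7%, 27.8% and 0% of all genes were called. E2F2, with 47 to 185 counts per library, is the member most limited by depth.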
